A study of Mus musculus with 3 samples.

Results

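Gamma-delta-type T cells are described here in mouse peripheral blood, as 92 of the 22688 cell barcodes with 200 or more detected genes and as 92 of the 7075 barcodes that held 2 or more UMIs (unique molecular identifiers, counted transcripts) of Cd3e, Cd3d and Cd3g together. They were chosen by raw UMIs: a CD3 sum of 2 or more, at least 1 UMI of Trdc, none of Cd4, Cd8a, Cd8b1 or Ncr1, at most 2 of Cd79a, Cd79b and Ms4a1 together and at most 1 of Csf1r and Csf3r together. The 3 libraries held 53, 17 and 22 of these cells. They made up 1.19%, 1.46% and 1.52% of the CD3-positive barcodes (exact 95% binomial intervals 0.891 to 1.55, 0.855 to 2.33 and 0.953 to 2.29), a mean of 1.39 ± 0.177% (SD, n = 3). The intervals cover counting error only, and the libraries' intervals overlapped.

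T cells recognise antigen through a heterodimeric receptor that travels to the surface with the CD3 chains. Most blood T cells carry alpha and beta chains with Cd4 or Cd8 as coreceptor, whereas gamma-delta T cells carry a gamma and a delta chain and often lack a coreceptor. In the mouse, gamma-delta T cells include cells poised to make interleukin-17, with transcription factors such as Sox13 and Maf, and cells poised to make interferon-gamma, which keep CD27 and express T-bet (Tbx21).

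The libraries came from leukocytes of untreated male mice aged 8, 9 and 10 weeks for replicates 1, 2 and 3; no strain or allele is stated in the labels. Red cells were lysed, cells were sorted after nuclear staining, and fixed cells were profiled with a probe-based droplet kit. The labels place all 3 libraries in 1 group and do not say that they came from separate animals. Each p-value sets a difference between classes against how far that difference varied between these libraries, with the variation estimated partly from all genes. Shifts common to both classes of a library are taken out by the model. The variation that remains may be technical. Ages were not compared, since each has 1 library.

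The median gamma-delta-type cell held 4063, 3842 and 3377 UMIs in replicates 1, 2 and 3, against 4000, 3962 and 3677 in the 6679 other CD3-positive cells, which had no Trdc UMI. The cells' counts were summed per library, giving totals of 209818, 68165 and 80922 UMIs, so replicate 1 held most of the depth. Between 48 and 101 barcode sequences were shared by each pair of libraries; 4 of the 92 cells shared theirs, and in no case were both barcodes gamma-delta-type cells. The Scrublet doublet caller marked 2.08% to 6.06% of barcodes per library and 0 of the 92 cells. Levels are given below as CPM, a gene's UMIs scaled to the total UMIs of a class in 1 library, and differences as log2 fold changes from edgeR's quasi-likelihood test with the library as a block and p-values adjusted by Benjamini and Hochberg over all genes tested. In summed counts of this kind, fewer cells expressing a gene and less RNA per cell cannot be told apart, except where counts of cells are given.

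The 3 marker genes were present, as the rule required of Trdc and of the CD3 sum. Trdc, the constant gene of the delta chain (chr14:54142851-54148868, plus strand, in the GENCODE M21 annotation of GRCm38, a build used here only for positions), stood at 3107, 2919 and 3126 CPM, with a median of 10.5 UMIs and a highest value of 57 per cell. Cd3e stood at 1411, 1218 and 1310 CPM, against 1239 to 1295 in the other CD3-positive cells. Cd3g stood at 815, 778 and 593 CPM against 767 to 777, with replicate 3 below that range.

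The cells with the least Trdc carried other receptor genes than those with the most. Of the 9 cells with 1 Trdc UMI, just inside the rule, 0 held a UMI of a gamma chain constant gene and all 9 held 2 or more UMIs of Trac, the alpha chain constant gene. Of the 15 cells with 2 to 4 Trdc UMIs, 9 held a gamma constant UMI and 8 held Trac. Of the 68 cells with 5 or more, 64 (94.1%) held a gamma constant UMI and 20 held Trac. In all, 73 of 92 cells (79.3%) held a gamma constant UMI, 37 held Trac and 23 held both. Just outside the rule, 287 CD3-positive cells met every other limit and had no Trdc UMI, and of these 40 (13.9%) held a gamma constant UMI and 93.7% held Trac.

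The coreceptor limits removed most Trdc-bearing T cells. Of 396 CD3-positive barcodes with a Trdc UMI, 304 were removed, 145 holding Cd4 and 171 holding Cd8a or Cd8b1. The 122 removed for Cd4 without Cd8 mostly held 1 Trdc UMI (77.9%), and 1 of them held a gamma constant UMI. Those removed for Cd8 without Cd4 numbered 148, of which 29 held one. Trdc was also read outside T cells: NK cells, defined here by an Ncr1 UMI with no CD3, Cd4 or Cd8 UMI and the same B cell and myeloid limits, held it at 264, 212 and 206 CPM, with a Trdc UMI in 371 of 830 cells at medians of 3322 to 3542 UMIs per cell. B cells, which should lack the gene, held it at 0.702, 0.696 and 0.463 CPM, with a UMI in 19 of 9329 cells at medians of 3075.5 to 3221 UMIs.

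**Figure D1:**
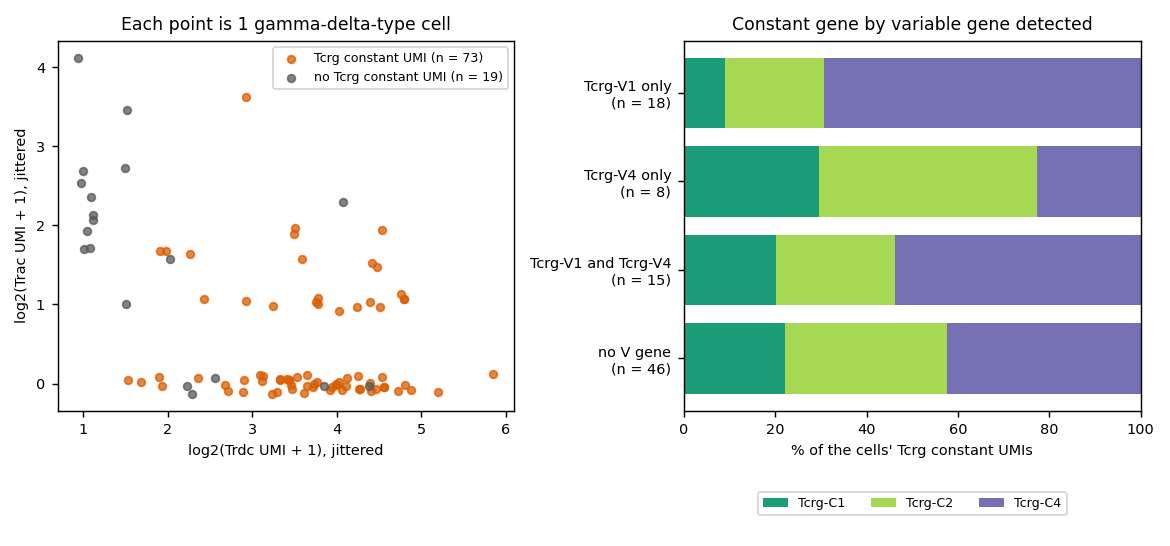
Left: UMIs of Trdc and Trac in each of the 92 cells, both as log2(UMI + 1) with a small random offset so that points do not hide each other, coloured by whether the cell held a UMI of a gamma constant gene. Right: share of the gamma constant UMIs that came from Tcrg-C1, Tcrg-C2 and Tcrg-C4 in cells grouped by the gamma variable gene detected; the 9 cells at 1 Trdc UMI are all grey and all above 0 for Trac, and Tcrg-C4 takes 69.3% of the UMIs in cells with Tcrg-V1 only against 22.7% in cells with Tcrg-V4 only.

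Gamma chain genes were among the largest differences from other T cells. The locus lies on chromosome 13 and is arranged in cassettes, each with its own constant gene: in the GRCm38 annotation Tcrg-V7, Tcrg-V4, Tcrg-V6 and Tcrg-V5 lie in that order before Tcrg-C1 (chr13:19214103-19217024, plus strand), Tcrg-C2 lies on the minus strand at chr13:19304649-19307551, and Tcrg-V1 (chr13:19339989-19340454) lies just before Tcrg-C4 (chr13:19344558-19352756, plus strand). The constant genes are near copies of each other, which bears on how far their counts can be told apart, so the most divergent gap-free stretch of 60 coding bases is shown for the 3 constant genes in the matrices, from the GENCODE M21 transcripts, with capitals at the 19 positions where the 3 are not all the same.
Tcrg-C1: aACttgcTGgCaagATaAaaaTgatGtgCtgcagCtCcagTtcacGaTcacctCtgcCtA
Tcrg-C2: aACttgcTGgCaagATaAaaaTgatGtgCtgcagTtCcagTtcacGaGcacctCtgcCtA
Tcrg-C4: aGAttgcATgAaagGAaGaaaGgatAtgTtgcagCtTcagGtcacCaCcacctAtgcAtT
Even in this stretch Tcrg-C1 and Tcrg-C2 shared 58 of 60 bases, and over 500 aligned coding bases they were 97.4% identical, whereas Tcrg-C4 was 78.7% identical to Tcrg-C1 and 79.7% to Tcrg-C2. The probes' own sequences were not used here, so the split of counts between Tcrg-C1 and Tcrg-C2 is uncertain.

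Of the 8 gamma-delta receptor genes in the matrices 5 were frequent enough to test against the other CD3-positive cells, and all 5 were higher, with a median log2 fold of 6.71 beside -0.05 over all genes. Over the 9502 genes tested, 224 (2.36%) were higher and 252 (2.65%) lower in gamma-delta-type cells (73 and 100 without replicate 1). Tcrg-C4 stood at 477, 587 and 618 CPM in replicates 1, 2 and 3, against 4.44, 7.35 and 4.15 in the other CD3-positive cells (log2 6.71, SE 0.34, edgeR adjusted p = 3e-81). Tcrg-C2 stood at 362, 279 and 297 CPM against 5.41, 9.94 and 3.39. Tcrg-C1 stood at 209.7, 176 and 198 CPM against 2.35, 1.95 and 0.942. Both constant genes were higher, by a log2 of 5.75 (SE 0.39, edgeR adjusted p = 7.62e-46) and 6.69 (SE 0.47, edgeR adjusted p = 2.78e-43).

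Among the variable genes Tcrg-V1 was found most often, in 35 cells, and stood at 229, 249 and 284 CPM against 0.963, 1.3 and 1.32 (log2 7.71, SE 0.46, edgeR adjusted p = 1.05e-58). Tcrg-V4 was found in 24 cells and stood at 100.1, 103 and 24.7 CPM against 0.589, 1.08 and 0.377 (log2 6.93, SE 0.65, edgeR adjusted p = 4.43e-24), with the low value in replicate 3. Tcrg-V5 and Tcrg-V6 were found in 4 cells each, 3 of them the same cells, in replicates 1 and 2 and not in replicate 3. Tcrg-V7 was found in 1 cell. No variable gene was found in 46 of the 92 cells, 1 in 26, 2 in 18 and 3 in 2. Tcrg-V1, Tcrg-V4, Tcrg-V5, Tcrg-V6 and Tcrg-V7 were the only gamma variable genes of the list in the matrices, which held none of its delta variable genes. The 46 cells are therefore not shown to lack a variable gene transcript.

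Constant and variable genes were co-detected in part as the cassettes lie. In the 18 cells whose only variable gene was Tcrg-V1, 69.3% of the gamma constant UMIs were of Tcrg-C4, and 17 of the 18 cells held it. In the 8 cells whose only variable gene was Tcrg-V4, 29.5% of such UMIs were of Tcrg-C1, 47.7% of Tcrg-C2 and 22.7% of Tcrg-C4. Over all 92 cells the shares were 18.9% for Tcrg-C1, 31.2% for Tcrg-C2 and 49.9% for Tcrg-C4. In the 46 cells with no variable gene found, Tcrg-C4 made up 42.3%. These are counts of a few cells and carry no test. Co-detection across cassettes was common: 15 cells held both Tcrg-V1 and Tcrg-V4, and 37 of the 40 cells with Tcrg-C1 also held Tcrg-C4. The coding parts of Tcrg-V1 and Tcrg-V4 were 72.8% identical over 345 aligned bases.

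Alpha and beta chain transcripts were fewer but not absent. Trac (chr14:54220521-54224206, downstream of Trdc on the same strand) stood at 291, 176 and 494 CPM, against 1599.8, 1578 and 1481 in the other CD3-positive cells (log2 -2.33, SE 0.13, edgeR adjusted p = 5.25e-65). Trbc2, a beta chain constant gene, stood at 1115, 909.6 and 1125 CPM against 1413, 1573 and 1448 (log2 -0.49, SE 0.10, edgeR adjusted p = 9.11e-05; 0.0665 with DESeq2). For Trbc1, the other beta constant gene, the values were 763, 1042 and 667 CPM against 1003, 866 and 990.3 and the groups overlapped (log2 -0.29, SE 0.11, edgeR adjusted p = 0.123). The beta constant genes are close copies, so how their counts are split is uncertain.

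The beta variable genes, a family added after its values were seen, separated these cells from T and from NK cells. The 22 Trbv genes in the matrices summed to 906, 1188 and 1273 CPM in gamma-delta-type cells, to 1796, 1803 and 1779 CPM in the other CD3-positive cells and to 13.4, 14.4 and 11.4 CPM in NK cells. Of 19 tested against other CD3-positive cells, 7 were lower and 0 higher, and of 17 tested against CD8 T cells 10 were lower and 0 higher. Trbv31 had 0 UMIs in the 92 cells and stood at 92.2, 73.5 and 79 CPM in the other CD3-positive cells, at least 10.4-fold higher when 3 UMIs are allowed over the summed gamma-delta-type cells. A Trbv UMI was found in all 9 cells with 1 Trdc UMI and in 44 of the 83 with more.

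**Figure D2:**
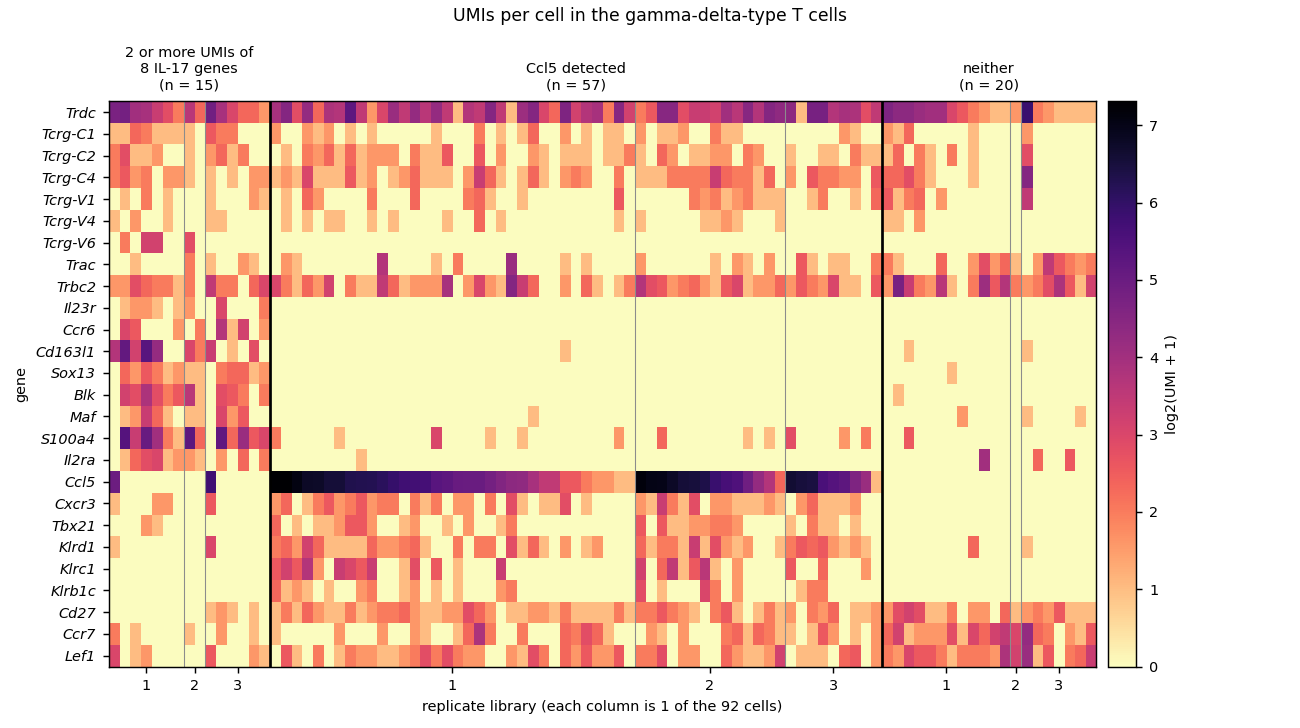
UMIs of 26 genes (rows, log2(UMI + 1) by colour) in each of the 92 gamma-delta-type cells (columns, ordered by group and then by replicate library). The left block of 15 cells holds 2 or more UMIs of 8 interleukin-17-type genes, the middle block of 57 holds Ccl5 without them and the right block of 20 holds neither; Sox13, Blk and S100a4 fill the left block, Klrb1c and Klrc1 are seen only in the middle block, and Ccr7 and Lef1 run through the right block.

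Within the 92 cells 3 patterns of expression stood side by side. A group of 15 cells (7, 2 and 6 in replicates 1, 2 and 3, a mean of 17.4 ± 8.57% of the cells, SD, n = 3) held 2 or more UMIs of 8 genes of the interleukin-17 programme, among them Il23r (a receptor chain for interleukin-23), Il17a, Il17f, Il17re, Ccr6 (a chemokine receptor), Cd163l1 (a scavenger receptor) and Il1r1. Of the others, 57 held Ccl5, a chemokine of effector lymphocytes, and 20 held neither. No test was run on this split, since a minimum of 10 cells a side in each library had been set for one, so the genes below are counts of cells. The median UMIs per cell were 3643 in the interleukin-17-type cells and 3809 in the other 77.

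The interleukin-17-type cells shared genes that had not been used to choose them. Sox13, a transcription factor of this lineage, was found in 13 of 15 and in 1 of the other 77 cells. Blk, a Src family kinase, was found in 12 of 15 against 1 of 77, Maf in 10 against 4 and Zbtb16, which encodes the innate T cell factor PLZF, in 10 against 3. S100a4 gave 210 UMIs in 13 of 15 cells and 37 UMIs in 13 of 77. Il2ra, a chain of the interleukin-2 receptor, was found in 11 of 15 against 4 of 77, and Mmp25, which encodes a membrane-bound protease, in 9 against 0.

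Some genes frequent in the other cells were found in few of these 15, and others were not fewer. Ccl5 was found in 2 of these 15 cells and in 57 of 77, and Cd27 in 4 against 70. Klrb1c, the gene of the NK1.1 antigen, was found in 0 of 15 cells and in 21 of 77. In the other direction, Klrk1, which encodes the activating receptor NKG2D, was found in 10 of 15 against 21 of 77, Il18r1 in 12 against 39 and Cxcr6 in 12 against 20, while Il2rb was found in 9 of 15 against 61 of 77. Tcrg-V6 was found in 4 of the 15 cells and in 0 of 77. Il17a itself had 0 UMIs in all 92 cells, and Il17f had 1, in a cell outside the group. In 3 of the 15, Cd163l1 was the only gene of the 8 with a UMI.

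Of all 92 cells 59 held Ccl5, 2 of them interleukin-17-type. Several type 1 and natural killer genes were found in more of these cells than of the 20 that held neither Ccl5 nor the interleukin-17 genes, some of them in none of the 20. Cxcr3, a homing receptor of type 1 T cells, was found in 44 of 59 cells against 0 of 20, and Tbx21 in 28 against 0. Klrc1, which encodes the inhibitory receptor NKG2A, was found in 25 against 0, Xcl1 in 22 against 0 and Klrb1c in 21 against 0. Eomes, a T-box factor, was found in 19 of 59 cells against 0 of 20. Others were found in both: Nkg7, a cytotoxic granule gene, in 57 of 59 and 10 of 20, Il2rb in 54 and 9, Klrd1 in 47 and 2, and Hopx in 41 and 1.

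The Ccl5-bearing cells also held Cd27 (53 of 59). Effector genes differed among themselves. Ifng was found in 1 of the 59 cells, Gzma in 1, Gzmb in 2, Gzmk in 0 and Gzmm in 9, whereas Prf1, which encodes perforin, was found in 18, Xcl1 in 22 and Nkg7 in 57, and Ccl5 had a median of 44 UMIs per cell.

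The remaining 20 cells (12, 1 and 7) held the genes of resting lymphocytes: Ccr7 in 19, Lef1 in 19 and Cd27 in 18. Ccr7, the lymph node entry receptor, stood at 1224 CPM in them and at 365 CPM in the Ccl5-bearing cells. Ccr9, a gut-homing receptor, was found in 6 of 20 against 2 of 59. Trac was found in 14 of the 20, and 6 of the 20 were cells with 1 Trdc UMI, of the 9 such cells in all.

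**Figure D3:**
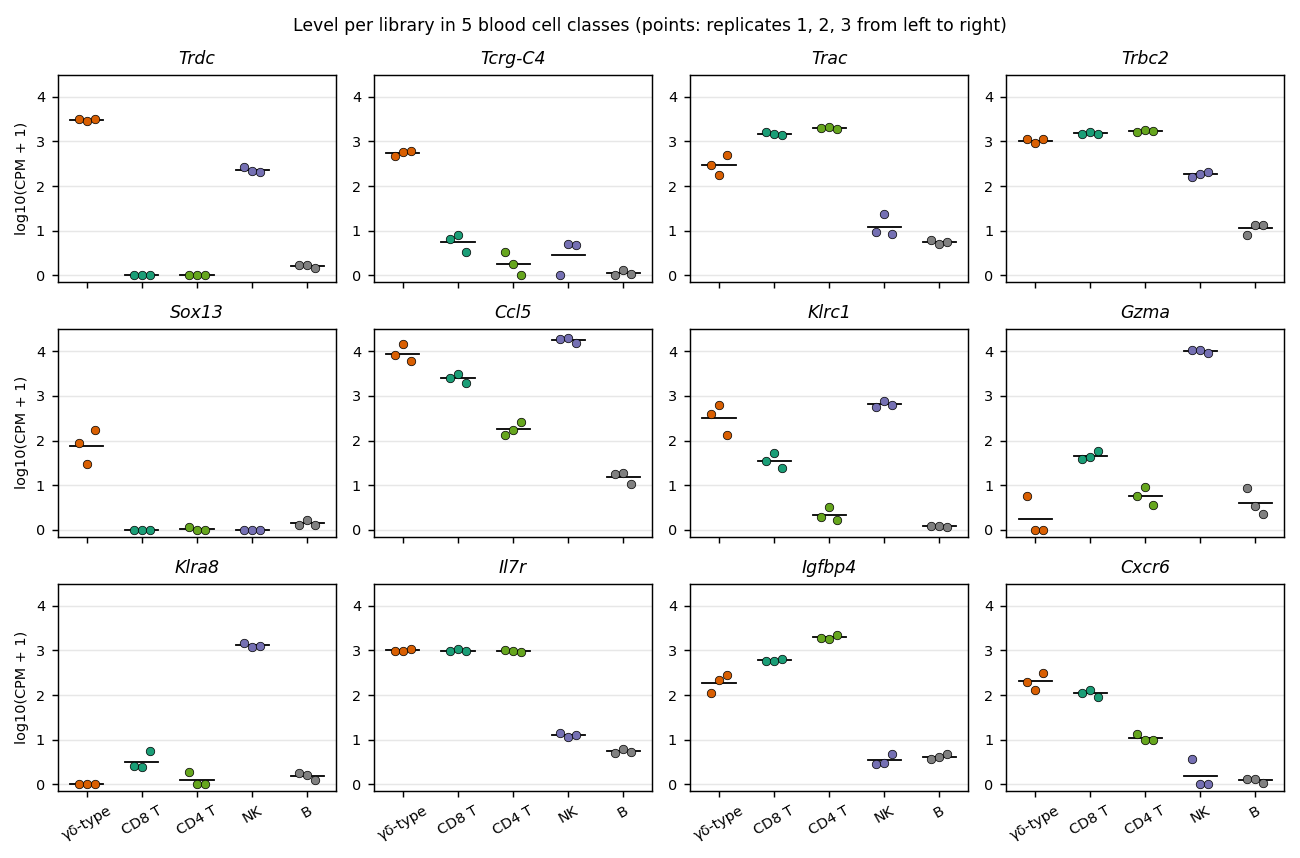
Level of 12 genes in 5 classes of blood cell, as log10(CPM + 1); each point is 1 library, in the order of replicates 1, 2 and 3, and the line is the mean of the 3 log values. CD8 and CD4 T cells were defined without Trdc, so their Trdc is 0 by rule; Gzma and Klra8 are high in NK cells and at or near 0 in gamma-delta-type cells, and Il7r lies near 3 on this axis in the 3 T cell classes.

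The interleukin-17 programme set the summed gamma-delta-type cells apart from other T cells. Of 20 tested genes of that list (25 were in the matrices), 13 were higher and 0 lower than in the other CD3-positive cells, with a median log2 fold of 1.62. Without replicate 1 the count was 8 higher of 19, and against cells held to the same limits 6 of 11. Without the 15 interleukin-17-type cells, which were chosen on genes of this list, 1 of 14 was higher and 2 were lower, with a median log2 of -0.39. The list was chosen with earlier results of these data known and its count is not independent evidence of a direction.

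Il23r stood at 33.4, 29.3 and 124 CPM against 0.856, 0 and 0.754 in the other CD3-positive cells (log2 6.23, SE 0.74, edgeR adjusted p = 7.56e-15), from 8 of the 92 cells. Kcnk1, a potassium channel gene, stood at 19.1, 44 and 37.1 CPM against 0.107, 0 and 0.565 (log2 7.01, SE 1.05, edgeR adjusted p = 2.8e-09), from 5 cells. In each of these genes a small number of cells carried the difference.

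Lineage regulators followed, with 11 of 21 tested genes higher and 3 lower (median log2 0.64; 6 higher and 1 lower without replicate 1). Without the interleukin-17-type cells 4 of 19 were higher and 4 lower, with a median log2 of -0.07, and against cells held to the same limits 4 of 16 were higher and 2 lower. Sox13 stood at 85.8, 29.3 and 173 CPM against 0.0535, 0.216 and 0.565 (log2 8.76, SE 0.70, edgeR adjusted p = 2.93e-33). Zbtb16 stood at 105, 103 and 74.1 CPM against 12.1, 2.38 and 8.29 (log2 3.53, SE 0.50, edgeR adjusted p = 2.46e-10). Neither gene's groups overlapped, which the choice of named genes favours, and replicate 2 was lowest for Sox13. The lower regulators were Zbtb7b, the factor of the CD4 lineage, Bcl11b and Lef1, both factors of T cell commitment: Lef1 stood at 658, 616 and 754 CPM against 1143, 1152 and 1223 (log2 -0.83, SE 0.11, edgeR adjusted p = 7.35e-11). Zbtb7b and Bcl11b lost their calls without replicate 1, Zbtb7b also without replicate 2. Since the rule barred Cd4, a lower Zbtb7b is not read as a result. Without the interleukin-17-type cells Zbtb16 was at a log2 of 0.75 (edgeR adjusted p = 0.879). Lef1 was the only regulator called lower against CD8 T cells.

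Of the 10 genes with the highest log2 fold at 20 CPM or more in either class, the gamma genes and those above made up 6. Itgb4, an integrin chain, came first: it stood at 62, 44 and 12.4 CPM, from 4 cells of which 1 gave 52.9% of its 17 UMIs, against 1 UMI in all the other CD3-positive cells. The pooled ratio was 1355, with an exact 95% interval of 212 to 56646 for counting error only. Zfp462, Lingo4 and Jag1 were the others, from 8, 9 and 6 cells, and the UMIs of Itgb4, Zfp462 and Lingo4 all came from interleukin-17-type cells.

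Type 1 genes were higher in the same comparison, in 13 of 26 tested genes, with 1 lower (median log2 1.06; 8 higher and 0 lower without replicate 1; 6 of 15 and 0 against cells held to the same limits). Ccl5 stood at 8121, 14421 and 6079.9 CPM against 1515, 2242 and 1401 (log2 2.38, SE 0.08, edgeR adjusted p = 6.59e-175). Without the library block its fold was 2.43 and its edgeR adjusted p 0.092. Xcl1, the lymphotactin gene, stood at 114, 235 and 49.4 CPM against 21.2, 24.2 and 14.1 (log2 2.58, SE 0.39, edgeR adjusted p = 5.94e-09). Tbx21 stood at 162, 352 and 86.5 CPM against 50.5, 62.7 and 36.7 (log2 1.85, SE 0.26, edgeR adjusted p = 1.95e-10). Replicate 2 was highest and replicate 3 lowest for all 3 genes.

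Il12rb2, a chain of the interleukin-12 receptor, stood at 23.8, 73.4 and 12.4 CPM against 3.59, 6.27 and 1.7 (log2 3.03, SE 0.75, edgeR adjusted p = 0.00207) and lost its call without replicate 1 or without replicate 2. Gzma, the gene of the cytotoxic protease granzyme A, went the other way: 1 UMI was found in 92 cells, 4.77, 0 and 0 CPM, against 60.9, 45 and 32.8 in the other CD3-positive cells. The pooled ratio was 0.0525, with an exact 95% interval of 0.00133 to 0.293 for counting error only. The edgeR adjusted p of 0.000103 became 0.061 with DESeq2, and 0.104 without replicate 1.

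Receptors of natural killer type were higher in 8 of 19 tested genes and lower in 1 (median log2 0.70; 5 and 1 without replicate 1; 3 of 12 and 1 against cells held to the same limits). Klrb1c stood at 114, 279 and 86.5 CPM against 10.8, 11.5 and 5.47 (log2 3.90, SE 0.43, edgeR adjusted p = 5.34e-17). Klrc1 stood at 400.3, 616 and 136 CPM against 21.7, 44.8 and 17.9 (log2 3.79, SE 0.25, edgeR adjusted p = 1.52e-50; 0.113 without the library block). Klri1, a further lectin-like receptor, stood at 33.4, 14.7 and 61.8 CPM against 1.39, 1.3 and 0.942 and lost its call without replicate 1. The groups overlapped in none of these, which the choice of named genes favours. Tyrobp, the adaptor DAP12, was lower at 148, 58.7 and 24.7 CPM against 423, 189 and 122 (log2 -1.63, SE 0.23, edgeR adjusted p = 2.46e-10), with 48.6% of its UMIs from 1 cell; the call was lost with doublets removed, and the sign turned when comparison cells were held to the same limits.

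The composition of the comparison cells bears on these values. Of the 6679 other CD3-positive cells, 722 (10.8%) exceeded the limits on B cell or myeloid genes set for gamma-delta-type cells. The summed B cell marker level of all 6679 was 1325 to 2881 CPM against 81 to 371 CPM in gamma-delta-type cells. Myeloid and B cell genes therefore had to be lower and are not read as results: 8 of 10 B cell markers and 5 of 9 neutrophil markers were lower in this comparison, whereas 0 of 6 and 0 of 4 were called by edgeR or DESeq2 against CD8 T cells held to the same limits, with 0 and 0 at an unadjusted p under 0.05. The 6679 cells also included 2336 with a Cd4 UMI, no Cd8 or Ncr1 UMI and the same B cell and myeloid limits. The rule barred Cd4 in gamma-delta-type cells, so lower values of CD4 T cell genes such as Zbtb7b and Cd40lg are not read as results. Only 287 CD3-positive cells without Trdc met all of the limits. Against those, 66 genes were higher and 65 lower. Xcl1 (log2 0.53), Klrb1c (log2 1.06), Zbtb16 (log2 1.26), Il2ra (log2 0.10) and Dapl1 (log2 -0.55) were no longer called. Ccl5 (log2 0.98), Klrc1 (log2 1.73) and Trac (log2 -2.34) were called there too. Markers shared by NKT and MAIT cells, which are innate-like alpha-beta T cells, were higher in 5 of 6 genes against the other CD3-positive cells: Klrb1c, Zbtb16, Tbx21, Cxcr6 and Il2rb. Their summed level was 1887, 2978 and 1594 CPM against 608, 746 and 453 CPM, and the part of such cells in the results was not tested.

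Genes of resting T cells were lower or not called, in 9 and 13 of 22 tested genes, with 0 higher (median log2 -0.31). Igfbp4, which encodes an insulin-like growth factor binding protein, stood at 109.6, 220.1 and 284 CPM against 1051, 959 and 1193 (log2 -2.64, SE 0.16, edgeR adjusted p = 3.01e-59). Dapl1 stood at 90.6, 220.1 and 111 CPM against 339, 386 and 342 (log2 -1.55, SE 0.20, edgeR adjusted p = 2.56e-12). Il6ra, the interleukin-6 receptor gene, stood at 76.3, 44 and 124 CPM against 326, 319 and 323 (log2 -2.03, SE 0.23, edgeR adjusted p = 1.7e-16). Ccr7 stood at 519, 425 and 593 CPM against 1114, 999 and 1158 (log2 -1.12, SE 0.12, edgeR adjusted p = 1.15e-17). None of the 4 overlapped between the groups, but the choice of named genes favours this, so it is no separate support.

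Proximal receptor signalling genes moved little. Of 26 tested, 7 were lower and 0 higher (median log2 -0.09; 2 lower without replicate 1 and 1 lower with DESeq2). Cd5, which dampens receptor signals, stood at 209.7, 176 and 371 CPM against 460.0, 428 and 516 (log2 -0.98, SE 0.16, edgeR adjusted p = 9.36e-08). Cd6 and Cd28, a relative of Cd5 and a costimulatory receptor, were lower by log2 values of -0.92 and -0.76 (edgeR adjusted p = 0.00261 and 0.00301) and lost their calls without replicate 1, without the interleukin-17-type cells and with DESeq2. Neither Cd5 nor Cd28 was called against CD8 T cells. Cd247, the CD3 zeta chain, stood at 658, 499 and 853 CPM against 729.8, 669 and 788 and was not called (log2 -0.16, SE 0.12, edgeR adjusted p = 0.667).

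Activation and memory genes were higher in 11 of 29 tested and lower in 3 (median log2 0.63; 8 and 2 without replicate 1; 6 and 3 without the interleukin-17-type cells). Il2rb, the interleukin-2 and interleukin-15 receptor beta chain, stood at 1296, 2113 and 1013 CPM against 447, 585 and 343 (log2 1.61, SE 0.10, edgeR adjusted p = 1.34e-51; 0.147 without the library block). Il2ra stood at 176, 44 and 222 CPM against 23.9, 27.5 and 26.9 (log2 2.56, SE 0.33, edgeR adjusted p = 3.37e-12). S100a6 stood at 248, 293 and 297 CPM against 119, 103 and 63.7 (log2 1.43, SE 0.21, edgeR adjusted p = 2.05e-09) and was at log2 0.32 with edgeR adjusted p = 0.802 once the interleukin-17-type cells were left out, and at an edgeR adjusted p of 0.222 without the library block. Cd40lg, the gene of a helper T cell ligand, was lower at 19.1, 0 and 12.4 CPM against 87.9, 65.7 and 90.5 (log2 -2.64, SE 0.52, edgeR adjusted p = 2.14e-05). The rule barred Cd4 in gamma-delta-type cells and not in the comparison cells, so this lower value is not read as a result. Against CD8 T cells 0 tested genes of the list were called lower.

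Receptors for cytokines were higher in 7 of 23 tested genes and lower in 3 (4 and 1 without replicate 1), and homing genes higher in 7 of 30 and lower in 4 (4 and 2 without replicate 1). Ccr6 stood at 66.7, 44 and 284 CPM against 11.5, 19.2 and 17.9 (log2 2.86, SE 0.43, edgeR adjusted p = 3.58e-09; 0.0628 without the library block), from 8 cells; Ccr6 is among the genes that chose the interleukin-17-type cells. Cxcr6, a receptor of tissue-homing T cells, stood at 200.2, 132 and 309 CPM against 63.4, 74.4 and 49.9 (log2 1.75, SE 0.24, edgeR adjusted p = 1.29e-10), and was at a log2 of 0.66 (edgeR adjusted p = 0.415) without the interleukin-17-type cells. Cxcr5, the receptor that guides cells to B cell follicles, was lower at 4.77, 29.3 and 74.1 CPM against 72, 87.8 and 127 (log2 -1.82, SE 0.43, edgeR adjusted p = 8.91e-04), with groups that overlapped and a call that was lost without replicate 1.

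Few genes of the last 4 lists differed, where over all genes tested 2.36% were higher and 2.65% lower. With lists this short, 1 call in a direction is not read as a result about a list. Of 29 tested interferon-stimulated genes 1 was higher and 3 lower, of 19 immediate-early genes 1 was higher and 1 lower, and of 22 metabolic genes 0 were higher and 1 lower. Of 14 tested proliferation genes 0 were called by edgeR in either direction and 0 by DESeq2, and 0 had an unadjusted p under 0.05.

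**Figure D4:**
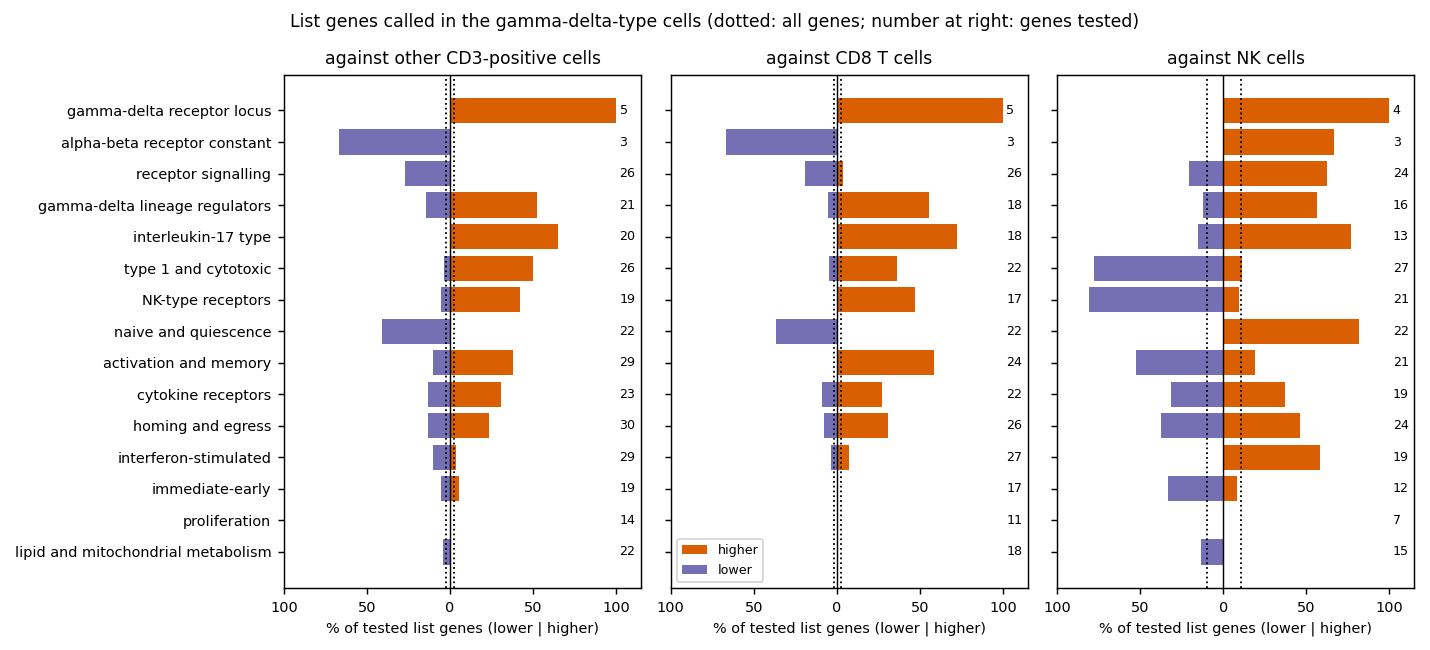
Share of tested genes of 15 lists called higher (right) or lower (left) in gamma-delta-type cells by edgeR at an adjusted p of 0.05, in 3 comparisons. The number at the right of each bar is the number of list genes tested and the dotted lines give the share called over all genes; against NK cells the type 1 and NK receptor lists point left and the naive list points right.

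Against CD8 T cells (2841 cells with 2 or more UMIs of Cd8a and Cd8b1, no Trdc, Cd4 or Ncr1 and the same B cell and myeloid limits), 214 of 8730 genes (2.45%) were higher and 136 (1.56%) lower (69 and 71 without replicate 1). The gamma-delta-type libraries are the same in each comparison, so the comparisons are not independent of each other. The interleukin-17 list was higher in 13 of 18 tested genes and lower in 0, the activation list higher in 14 of 24 and lower in 0, the NK receptor list higher in 8 of 17 and lower in 0, and the naive list lower in 8 of 22 and higher in 0. Without replicate 1 these counts were 9, 9, 5 and 6.

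Ccl5 stood at 2569, 3085 and 1935 CPM in CD8 T cells and was higher in gamma-delta-type cells (log2 1.82, SE 0.10, edgeR adjusted p = 5.13e-77). Sox13 had 0 UMIs in 2841 CD8 T cells and was at least 383-fold higher in gamma-delta-type cells when 3 UMIs are allowed over the summed CD8 T cells. Il2ra was at 2.04, 1.86 and 1.4 CPM in CD8 T cells (log2 6.32, SE 0.51, edgeR adjusted p = 1.27e-32).

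Fcer1g and Tyrobp, adaptors that pair with activating receptors, were higher than in CD8 T cells: Fcer1g stood at 129, 220.1 and 136 CPM against 18.6, 22.7 and 15 (log2 3.00, SE 0.36, edgeR adjusted p = 1.36e-14). Tyrobp was at 19, 9.29 and 10.7 CPM in CD8 T cells (log2 2.63, SE 0.45, edgeR adjusted p = 7.19e-07), so its direction depends on the comparison cells. Trat1, a transmembrane adaptor of the receptor complex, stood at 66.7, 88 and 37.1 CPM against 22.8, 22.3 and 23.8 (log2 1.45, SE 0.45, edgeR adjusted p = 0.0345) and lost its call without replicate 1 or without replicate 2, and when cells with 1 Trdc UMI were left out.

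Igfbp4 was at 589.7, 567 and 659 CPM in CD8 T cells and lower in gamma-delta-type cells (log2 -1.81, SE 0.17, edgeR adjusted p = 1.56e-23). Dapl1 was at 463, 465 and 463 CPM (log2 -1.95, SE 0.19, edgeR adjusted p = 2.58e-21). Slc6a19, an amino acid transporter gene, had 0 UMIs in the 92 cells and 60, 77.5 and 79.9 CPM in CD8 T cells, at least 7.97-fold higher there when 3 UMIs are allowed over the gamma-delta-type cells. Red cell genes were also lower, in 4 of 5 tested markers: Hbb-bt, Alas2, Hbb-bs and Hba-a2. The summed red cell level was 195, 9917 and 2101 CPM in gamma-delta-type cells and 975, 19290 and 4537 CPM in CD8 T cells, so it varied more between libraries than between the classes, and its part in other results was not tested.

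Against 830 NK cells, 628 of 5813 genes (10.8%) were higher and 570 (9.81%) lower (318 and 287 without replicate 1). Here the type 1 list was lower in 21 of 27 tested genes and higher in 3, and the NK receptor list lower in 17 of 21 and higher in 2. The naive list was higher in 18 of 22 and lower in 0, and the interleukin-17 list higher in 10 of 13 and lower in 2. Receptor signalling genes were higher in 15 of 24 and lower in 5 (11 and 0 without replicate 1, when the type 1 and NK receptor lists had 1 higher gene each).

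Some NK-type receptors were not found in gamma-delta-type cells and others were lower. Of 26 such genes in the matrices, 3 had 0 UMIs: Klra4, Klra8 and Ncam1, the last also at 0 in NK cells. Others, such as Klra7 and Klre1, were detected and called lower. Klra8 and Klra4, Ly49 receptor genes, had 0 UMIs in the 92 cells, against 1439, 1192 and 1263 CPM and 1198, 867 and 1156 CPM in NK cells, at least 165-fold and 136-fold higher there when 3 UMIs are allowed over the gamma-delta-type cells. The Ly49 genes are close copies, so counts may be split among them. Klrg1, a receptor of terminally differentiated lymphocytes, had 0 UMIs and Gzma 1 UMI, while NK cells held Gzma at 10723, 10704 and 8980.4 CPM. Klrb1c was in between, at 1171, 1099.7 and 950.3 CPM in NK cells (log2 -3.0, SE 0.20, edgeR adjusted p = 9.83e-24). The 10 NK markers summed to 2002, 2567 and 1681 CPM in gamma-delta-type cells and 31097, 29740 and 28120 CPM in NK cells. Ccl5 was closer, at 18898, 19668 and 15045 CPM in NK cells (log2 -1.04, SE 0.15, edgeR adjusted p = 5.14e-09).

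Several genes were shared with T cells and not with NK cells. Il7r, the interleukin-7 receptor alpha chain, stood at 996, 968 and 1087 CPM against 12.9, 10.3 and 11.4 in NK cells (log2 6.27, SE 0.21, edgeR adjusted p = 2.7e-51). Ccr7 was at 2.31, 4.12 and 3.82 CPM in NK cells (log2 7.34, SE 0.32, edgeR adjusted p = 5.01e-41). Cxcr6 was at 2.77, 0 and 0 CPM there (log2 6.44, SE 0.45, edgeR adjusted p = 4.15e-25). Trbc1 was at 765, 710.5 and 759 CPM in NK cells, overlapping the gamma-delta-type values (log2 0.06, SE 0.14, edgeR adjusted p = 0.855), whereas Trbc2 at 158, 185 and 206 CPM was below them (log2 2.54, SE 0.15, edgeR adjusted p = 3.04e-30).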

How the data were processed

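The authors deposited 1 matrix a library of unnormalized UMI counts over 19059 genes, made with Cell Ranger 7.1.0 per the file headers; the feature and barcode lists deposited beside them hold identifiers only. Neither genome build nor probe set is given in the sources used here. Barcodes under 200 genes were removed, classes were set by raw UMIs, and counts were summed per library and class (total depth 45718031, 19591648 and 23443660 UMIs). edgeR 4.0.16 (TMM, filterByExpr, robust quasi-likelihood F test, R 4.3.3) was run with the library as a block, which pairs the classes because both come from the same library; the 13 genes of the rule were not tested. DESeq2 1.42.0 was an alternative. Doublets were called with Scrublet in scanpy 1.11.5. The fits were tested on simulated data with known changes. They recovered 24 to 26% of changes of log2 1 and 83 to 88.4% of those of log2 2. False calls made up 1.80 to 2.68% of calls. The simulated spread between libraries was set larger than the spread estimated from the data, so these shares need not hold for the data. Changed genes were drawn only from those at higher levels, and no shift common to both classes of a library was simulated. Recovery of genes at low CPM was therefore not tested.

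Named genes were the receptor genes, the 3 highest and 3 lowest called genes of each list at 10 CPM or more and the 10 highest and lowest at 20 CPM or more that moved the same way in all 3 libraries; others were added as illustrations after their values were seen. Genes named for their calls had to move the same way in all 3 libraries, so groups that did not overlap are no separate support. The share of all genes whose groups did not overlap is not given here. The members, 15 outcome lists and 10 marker lists of other cells were chosen with earlier results of these data known. B cells were barcodes with 3 or more UMIs of Cd79a, Cd79b and Ms4a1 together, no CD3 or Ncr1 UMI and the same myeloid limit. Scrublet's calls were removed only as an alternative. The libraries' summed gamma-delta-type counts differed by more than sampling noise (chi-square per degree of freedom 1.40 to 1.98). Some genes of the lists are not reported here by name.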

Additional observations from a re-analysis of the deposited data

How the results depend on the processing

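Counts of called genes depended on the tool and on replicate 1, which holds 53 of the 92 cells. Against other CD3-positive cells the 224 higher and 252 lower genes became 129 and 67 with DESeq2 (65.8% higher among calls, against 47.1%), 66 and 65 against cells held to the same limits, 133 lower with cells matched on UMIs and 148 higher without interleukin-17-type cells; leaving out 1 library gave 73 to 173 and 100 to 210. Without the replicate block, 163 were higher and 109 lower (59.9% higher). Against CD8 T cells 214 and 136 became 128 and 50 with DESeq2 (71.9% higher, against 61.1%), and 69 to 193 and 71 to 106 with 1 library left out. Against NK cells 628 and 570 became 276 and 247 with DESeq2, and 318 to 623 and 287 to 634. Among the fits that left out 1 library, the lowest count in each comparison came without replicate 1.

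Tyrobp turned to a log2 of 0.81 (edgeR adjusted p = 0.421) against cells held to the same limits. The share of gamma-delta-type cells was 1.08% when a gamma constant UMI was required, an alternative chosen after seeing the data, as was leaving out interleukin-17-type cells; it was 1.33 to 1.49% with 1 library left out. Of the named genes called against other CD3-positive cells 25 of 58 lost the call without replicate 1, 22 of 63 with DESeq2 and 21 of 63 without the replicate block. Apart from Tyrobp, the named genes that were called kept their direction under each alternative in which they were tested, which for cells held to the same limits was 37 of 63. The cause of these changes was not tested. Interleukin-17-type and Cd27 splits had under 10 cells a side in a library, the minimum set for a test, so no fit, block or normalization alternative was run on them. Depth limits these tests: a gene that was not called is not shown to be alike.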
